A study of Caenorhabditis elegans with 11 samples.

Results

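Caenorhabditis elegans L4 larvae of the genotype atfs-1(null)_nhr-180(cmh19), here called the double mutant, were collected whole and compared with wildtype L4 larvae across all genes. The library names give the wildtype as N2. The comparison used 3 double mutant and 3 wildtype libraries of the 11 in the series. The remaining libraries, 3 of atfs-1(null) and 2 of nhr-180(cmh19), served to place the double mutant beside its single mutants. Every group ate HT115, a strain of E. coli, and RNA came from entire animals, so tissues are not separated and fewer cells of a type cannot be told apart from less RNA per cell. The sources used here do not describe the cmh19 lesion, and they name the atfs-1 allele only as null. The titles number the libraries of each group as biological replicates (bio rep), without saying what was kept separate, so the p-values measure the spread between these samples.

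ATFS-1 drives the nuclear side of the mitochondrial unfolded protein response. It is normally imported into healthy mitochondria and destroyed there; when import weakens it goes to the nucleus and switches on mitochondrial chaperones, import components and metabolic genes. Nuclear hormone receptors, of which NHR-180 is one, are a greatly expanded family of transcription factors in nematodes, and several set the expression of lipid, vitamin and detoxification genes in the gut.

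Both targeted genes were low in the double mutant. Transcript of atfs-1 (WBGene00013878, V:14193663-14197700 in WBcel235, plus strand) stood at 2.55, 3.13 and 3.57 CPM in the double mutant libraries. CPM are counts scaled to the library's total, adjusted by its TMM normalization factor. In the wildtype libraries atfs-1 stood at 54.7, 52.3 and 54.3 CPM. The difference was -4.12 ± 0.52 (log2 fold change ± SE, double mutant over wildtype; edgeR quasi-likelihood test, Benjamini-Hochberg adjusted p = 0.000754). Transcript of nhr-180 (WBGene00017961, V:665919-667510, minus strand) stood at 0.563, 0.495 and 0.423 CPM in the double mutant and at 3.05, 4.02 and 4.05 CPM in wildtype (-2.89 ± 0.23, adjusted p = 3.74e-05). Neither gene's libraries overlapped between the genotypes.

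Total counts lay between 20860822 and 22921602 per library. Log2 CPM profiles correlated at 0.978 to 0.993 across genes within the double mutant or wildtype (6 pairs) and at 0.938 to 0.966 between them (9 pairs); genes are not independent replicates. On the second principal component (20.5% of the variance) a pair of libraries stood apart from their replicates. The atfs-1(null) libraries scored -30.9, 43 and 31.3 there, with replicate 1 apart, and the wildtype libraries 5.25, 43 and 18.5, with replicate 2 apart. Both enter every result below unless a value without them is given.

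Of 16013 genes tested, 2618 were called by edgeR at an adjusted p under 0.05, which is 16.3% of them. Here and below, rose, fell, called and none refer to this edgeR test unless another tool is named. Higher in the double mutant were 1614 genes (10.1%) and lower 1004 (6.27%), so 61.7% of the calls were rises. In a limma fit to the deposited TPM values, which differs in tool and filter as well as in unit, that share was 78% and the median of all 15336 genes tested was 0.130 (log2), beside 0.02 with counts. The median rise was 0.99 and the median fall -0.85 on the log2 scale. Rises were also the larger ones: 331 genes rose at least 4-fold and 74 fell as far, and 128 rose at least 8-fold while 20 fell that far. In 2611 of the 2618 called genes no double mutant library overlapped a wildtype library, against 43.9% of all genes tested. The number of calls moved with single libraries. Leaving out double mutant replicates 1, 2 and 3 gave 1618, 1532 and 1431 calls, leaving out atfs-1(null) replicate 1 gave 4069, and leaving out wildtype replicates 2 and 3 gave 1480 and 1121.

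**Figure D1:**
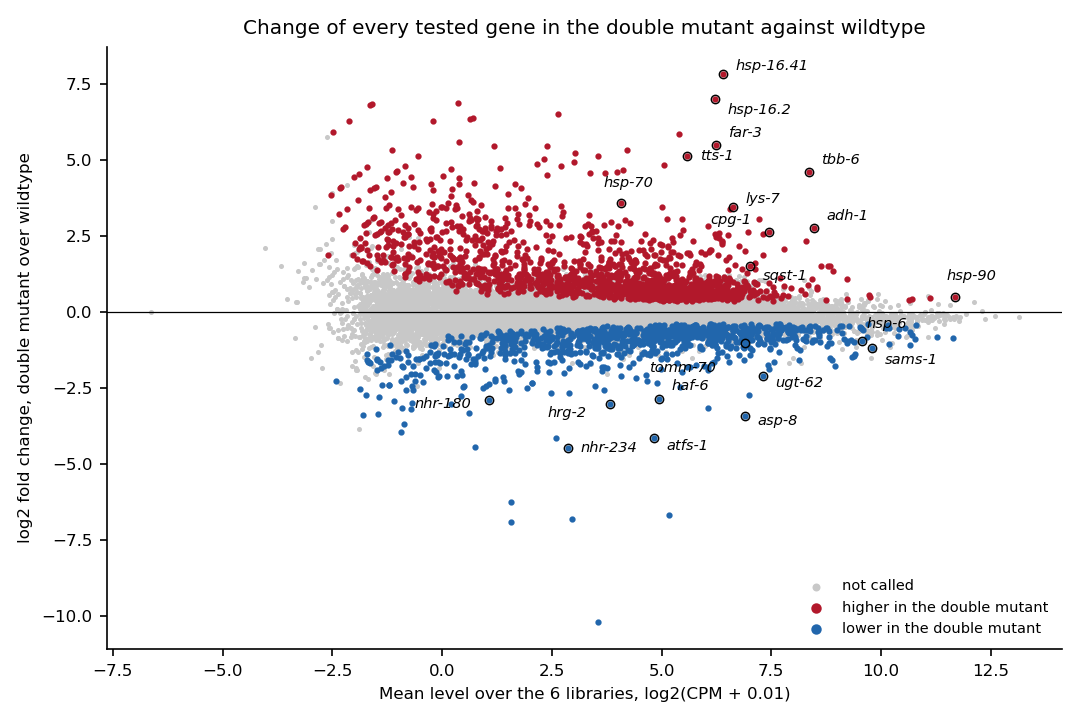
Each point is a tested gene, with its mean level over the 3 double mutant and 3 wildtype libraries on the x axis (log2 of CPM + 0.01) and its log2 fold change, double mutant over wildtype, on the y axis; called genes are red where higher and blue where lower in the double mutant. Among labelled genes, hsp-16.41 lies at 7.83, hsp-16.2 at 7.01 and atfs-1 at -4.12.

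Genes for building and maintaining mitochondria were lower in the double mutant. Of 16 tested members of the mitochondrial protein import list 11 fell, of 67 mitochondrial ribosomal protein genes 41 fell, and of 13 mitochondrial chaperones and proteases 5 fell; none rose. Their median log2 fold changes were -0.71, -0.57 and -0.65, beside 0.02 over all genes, and every member of each list had a negative value. The fold changes of the ribosomal proteins spanned a narrow range, -0.87 to -0.13.

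The mitochondrial Hsp70 gene hsp-6, the usual reporter of the mitochondrial unfolded protein response, measured 522, 419 and 628 CPM in the double mutant, against 1032, 980 and 994 CPM in wildtype (-0.94 ± 0.21, adjusted p = 0.0122). The highest double mutant library stayed well under the lowest wildtype one. Its partner hsp-60, the mitochondrial chaperonin, measured 346, 301 and 520 CPM in the double mutant and 679, 582 and 621 CPM in wildtype. That difference of -0.69 ± 0.23 was not called by edgeR (adjusted p = 0.0655), although the libraries did not overlap either. It was called without double mutant replicate 3 (adjusted p = 0.0191), the highest of its group, and without atfs-1(null) replicate 1 or 3 (0.0211 and 0.042). It was also called by the DESeq2 Wald test (0.0226), and by edgeR with the compared groups only (0.0394), with no filter (0.0432) and with the replicate block (0.0399). It was not called by limma on TPM (0.149) or by edgeR with DESeq2 size factors (0.0533). Leaving out any other single library gave no call either (edgeR adjusted p between 0.0781 and 0.179). The mitochondrial Hsp40 gene dnj-10 fell by 1.04 ± 0.13 on the log2 scale (adjusted p = 0.000746), and the prohibitin genes phb-1 and phb-2, which form a scaffold in the inner membrane, by 0.93 ± 0.12 and 0.97 ± 0.13.

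Import receptors and motors fell to about the same degree. Transcript of tomm-70, a receptor of the outer membrane, stood at 77.3, 81.5 and 79.5 CPM in the double mutant and 154, 168 and 157 CPM in wildtype (-1.01 ± 0.11, adjusted p = 0.000346). For tin-44, which anchors the import motor, the values were 59, 58.9 and 57.1 CPM in the double mutant and 115, 152 and 127 CPM in wildtype (-1.17 ± 0.13, adjusted p = 0.000301). Double mutant libraries varied little for both genes. The channel gene timm-23 (-0.75 ± 0.12) and mppa-1, a subunit of the peptidase that trims imported precursors (-1.08 ± 0.14), were lower as well. In the mitochondrial ribosome the small-subunit genes mrps-27 and mrps-9 fell by 0.79 ± 0.12 and 0.81 ± 0.12, and mrpl-44, of the large subunit, by 0.62 ± 0.11. Which members passed depended on the libraries. Import genes fell in 5 and 6 cases without double mutant replicates 1 and 3, in 7, 5 and 5 without wildtype replicates 1, 2 and 3, and in 7 without either nhr-180 library. Mitochondrial ribosomal protein genes fell in 20 and 17 cases without double mutant replicates 1 and 3, and in 18 and 17 without wildtype replicates 2 and 3. For chaperones and proteases the number rose instead, to 10 and 8 without atfs-1(null) replicates 1 and 3 and to 9 without double mutant replicate 3.

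Transcripts for energy metabolism moved less. Of 52 nuclear-encoded respiratory chain genes 11 fell and none rose, with a median of -0.25, and among 27 TCA cycle and pyruvate dehydrogenase genes 7 fell and none rose, with a median of -0.37. The complex I subunit gene gas-1 measured 187, 192 and 169 CPM in the double mutant, against 288, 344 and 324 CPM in wildtype (-0.80 ± 0.13, adjusted p = 0.00305). For pdha-1, a subunit of pyruvate dehydrogenase, the values were 281, 285 and 280 CPM in the double mutant and 463, 503 and 476 CPM in wildtype (-0.77 ± 0.11, adjusted p = 0.00165). In neither gene did the genotypes overlap. The mitochondrial isocitrate dehydrogenase gene idh-2 fell by 0.82 ± 0.12 and cox-15, an assembly factor of complex IV, by 0.64 ± 0.12. Of 14 tested genes on mitochondrial DNA 2 rose and 1 fell. The list of mitochondrial DNA genes held 11 of them, without the 2 that rose. Within the list every fold change was negative and the median was -0.56. The DESeq2 Wald test and limma on TPM each called 2 of the list lower, and edgeR called 0 to 3 without single libraries. With all libraries the only edgeR call in the list was nduo-5, a complex I subunit gene. It measured 323, 420 and 320 CPM in the double mutant and 507, 577 and 554 CPM in wildtype (-0.62 ± 0.16, adjusted p = 0.0225), a call lost without double mutant replicate 1 (0.0872) or 3 (0.0996) or wildtype replicate 2 (0.0759) or 3 (0.0831). Respiratory chain falls numbered 5, 7 and 7 without double mutant replicates 1, 2 and 3 and 6 and 5 without wildtype replicates 2 and 3. Falls in the TCA list numbered 16 without atfs-1(null) replicate 1, 4 without double mutant replicate 1 and 3 without wildtype replicate 3.

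**Figure D2:**
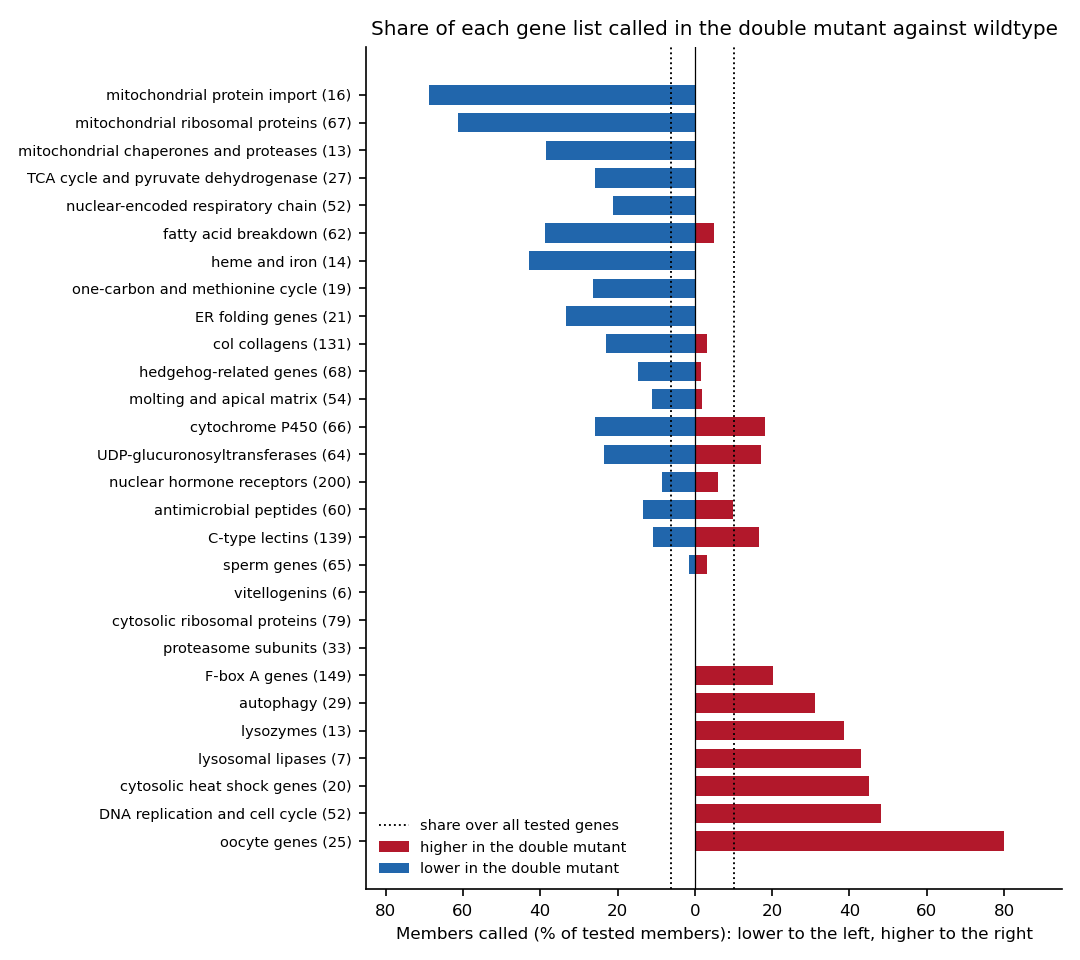
Bars give the percentage of each list's tested members (number in brackets) that were called higher (red, to the right) or lower (blue, to the left) in the double mutant against wildtype, and dotted lines give the shares over all tested genes, 10.1% higher and 6.27% lower. The mitochondrial lists extend to the left only, and oocyte genes, with 20 of 25 members called, reach farthest to the right.

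Heat shock genes of the cytosol gave the largest rises of the comparison. Small heat shock proteins of the HSP-16 family hold unfolding proteins and are nearly silent in unstressed animals. Transcript of hsp-16.41 stood at 209, 178 and 115 CPM in the double mutant, against 0.469, 1.06 and 0.65 CPM in wildtype (7.83 ± 0.36, adjusted p = 9.19e-07). The neighbouring hsp-16.2 stood at 178, 158 and 107 CPM in the double mutant, against 0.609, 1.71 and 1.1 CPM in wildtype (7.01 ± 0.35, adjusted p = 1.33e-06). Both were far above background in each double mutant library, with replicate 3 the lowest. Few reads were assigned to their relative hsp-16.49, named after its values were seen. It measured 0.303, 0.536 and 0.47 CPM in the double mutant and had no count in any wildtype library. The hsp-16 genes are near-identical copies, so reads may be shared between them. A low count therefore cannot show that a copy is scarce.

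Of 20 cytosolic heat shock genes tested 9 rose and none fell, with a median of 0.45. The inducible Hsp70 gene hsp-70 measured 34.7, 29.1 and 28.8 CPM in the double mutant, against 2.34, 2.54 and 2.8 CPM in wildtype (3.59 ± 0.18, adjusted p = 1.27e-06). Another small heat shock gene, hsp-43, rose by 1.01 ± 0.11 (adjusted p = 0.000374). The abundant Hsp90 gene hsp-90 rose less, with 4021, 3583 and 3958 CPM in the double mutant and 2804, 2665 and 2646 CPM in wildtype (0.51 ± 0.12, adjusted p = 0.0173). Its call was lost without double mutant replicate 1 (0.0637) or wildtype replicate 2 (0.0627) or 3 (0.0813).

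Folding genes of the endoplasmic reticulum (ER) were more often lower than higher. Of 21 ER folding genes 7 fell (33.3%) and none rose, beside 6.27% and 10.1% over all tested genes. In this list 8 genes had positive values. The limma fit to TPM called 6 lower and 2 higher. The list's median was -0.22 by counts and -0.09 by TPM, beside 0.02 and 0.130 over all genes. The calreticulin gene crt-1 measured 1948, 1645 and 1744 CPM in the double mutant and 2911, 3359 and 3163 CPM in wildtype (-0.82 ± 0.13, adjusted p = 0.0029). For pdi-2, a protein disulfide isomerase that also serves collagen assembly, the values were 2719, 1766 and 2365 CPM in the double mutant and 3846, 4590 and 3900 CPM in wildtype (-0.85 ± 0.16, adjusted p = 0.00625). No double mutant library reached the wildtype range in either gene. The lowest fold change in the list, -1.34, belonged to ckb-2, a choline kinase gene kept there because it is known to follow ER stress; it is not itself a folding gene. The BiP gene hsp-4, the standard readout of ER stress, was not called, at -0.22 ± 0.15 (adjusted p = 0.334).

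Cytosolic protein synthesis and breakdown showed few calls. Among 79 genes of the cytosolic ribosome edgeR called 0, an unadjusted p under 0.05 marked 1 as lower and the DESeq2 Wald test called 1 as lower; their median was -0.17. None of 20 aminoacyl-tRNA synthetase genes or 22 ribosome biogenesis genes was called by either tool, and none was under 0.05 unadjusted. Their medians were -0.11 and -0.09 with counts and 0.02 and 0.04 with TPM. Over all tested genes the median was 0.02 with counts and 0.130 with TPM. Translation factors, 38 in number, had a median of -0.07 by counts and 0.07 by TPM. Among them 3 rose (7.89%) and 2 fell (5.26%), beside 10.1% and 6.27% over all tested genes. When any single library was left out there were 0 to 3 rises and 0 to 5 falls. Of 33 proteasome subunit genes, 29 had positive values and the median was 0.12. No proteasome gene was called by edgeR or DESeq2 or reached 0.05 unadjusted, while 6 rose in the limma fit to TPM.

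Autophagy genes were more often higher than lower. Of 29 autophagy genes 9 rose and none fell, with a median of 0.32. The p62 receptor gene sqst-1, whose protein carries ubiquitinated cargo into autophagosomes, measured 205, 184 and 189 CPM in the double mutant and 65.5, 71.2 and 62.9 CPM in wildtype (1.53 ± 0.16, adjusted p = 0.000168). For lgg-2, of the Atg8 family that coats autophagosomes, the values were 54.8, 60.6 and 62.2 CPM in the double mutant and 33.9, 25.5 and 32 CPM in wildtype (0.96 ± 0.14, adjusted p = 0.00148). Every double mutant library lay above every wildtype one in both. The autophagy adaptor gene allo-1 rose by 1.04 ± 0.12 and the WIPI-family gene epg-6 by 0.86 ± 0.13.

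Among 7 tested lysosomal lipase genes 3 rose and none fell. Transcript of lipl-3 stood at 3.64, 2.64 and 3.9 CPM in the double mutant, against 0.234, 0.231 and 0.4 CPM in wildtype (3.54 ± 0.31, adjusted p = 5.88e-05). The related lipl-1 was more abundant, with 31.2, 32 and 26.6 CPM in the double mutant and 9.79, 12 and 10.8 CPM in wildtype (1.46 ± 0.19, adjusted p = 0.000881). Neither gene's libraries overlapped. The vacuolar ATPase, which acidifies lysosomes, did not follow. Of 20 subunit genes 1 rose (5%) and 3 fell (15%), beside 10.1% and 6.27% over all tested genes. Their median was -0.32, and the falls ranged over 0 to 6 when any single library was left out. Of 24 lysosomal and gut proteases 3 rose and 3 fell, 12.5% each beside 10.1% and 6.27% over all tested genes. The falls numbered 1 to 3 when any single library was left out. The cathepsin B-like gene cpr-1 rose by 1.51 ± 0.19 (adjusted p = 0.000856). The aspartyl protease gene asp-8 measured 22.2, 24.1 and 14.8 CPM in the double mutant and 176, 267 and 211 CPM in wildtype (-3.42 ± 0.27, adjusted p = 3.71e-05).

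Germline transcripts were higher. Of 25 oocyte genes 20 rose and none fell, with a median of 1.83 and a positive value for each. The double mutant libraries lay at medians of 1.59, 1.74 and 2.07 above the wildtype mean (log2 of CPM + 1), while the wildtype libraries themselves spread over 0.47, -0.46 and 0.07. No double mutant library overlapped a wildtype one. The atfs-1(null) libraries lay at 1.44, 0.18 and 0.81. Against atfs-1(null) 0 of the 25 genes were called, with a median of 0.95. Transcript of oma-1, which readies oocytes for maturation, stood at 75.6, 85.6 and 91.2 CPM in the double mutant and 31.9, 20.3 and 27.4 CPM in wildtype (1.66 ± 0.26, adjusted p = 0.00252). For mex-3, whose RNA-binding protein represses translation in the early embryo, the values were 123, 131 and 179 CPM in the double mutant and 50.8, 28.4 and 42.1 CPM in wildtype (1.83 ± 0.24, adjusted p = 0.000877). The eggshell proteoglycan gene cpg-1 rose by 2.63 ± 0.42 (adjusted p = 0.00279), and rme-2, the yolk receptor of the oocyte, by 2.03 ± 0.38 (adjusted p = 0.00584; outside the naming rule and chosen after its values were seen).

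The cell cycle moved in the same direction. Of 52 DNA replication and cell cycle genes 25 rose and none fell, with a median of 0.65. The helicase subunit gene mcm-6 measured 120, 137 and 133 CPM in the double mutant and 79.1, 73.2 and 80.8 CPM in wildtype (0.74 ± 0.14, adjusted p = 0.00602). The cyclin B3 gene cyb-3 rose by 1.43 ± 0.24 (adjusted p = 0.00344). Leaving out double mutant replicate 2 or 3 left 16 or 15 rises in this list, and leaving out wildtype replicate 2 or 3 left 12. Histone genes did not share this: of 31 tested 2 rose (6.45%) and none fell, beside 10.1% and 6.27% over all tested genes. Their median was 0.28, with 0 to 5 rises when any single library was left out.

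Sperm genes were less clear. Their median was 0.98 and 61 of 65 tested members had positive values, but only 2 rose and 1 fell. At an unadjusted p under 0.05, 42 were higher. The summed level of the list was 3882 to 5005 CPM in the double mutant libraries and 1215 to 3177 CPM in the wildtype libraries. The number of rises was 23 by the DESeq2 Wald test, 33 by limma on TPM, 40 with the replicate block, 46 without atfs-1(null) replicate 1 (and as low as 0 without another single library), and 37 when wildtype replicate 2 was dropped along with it. By library the sperm medians were 0.97, 0.87 and 1.14 in the double mutant and 0.54, -0.70 and 0.16 in wildtype, where replicate 2 was lowest. Wildtype replicate 2 was also the lowest wildtype library for oocyte genes. Without it and atfs-1(null) replicate 1 together 20 oocyte genes rose, as with all libraries. The part of these germline differences in the results for other tissues was not tested.

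**Figure D3:**
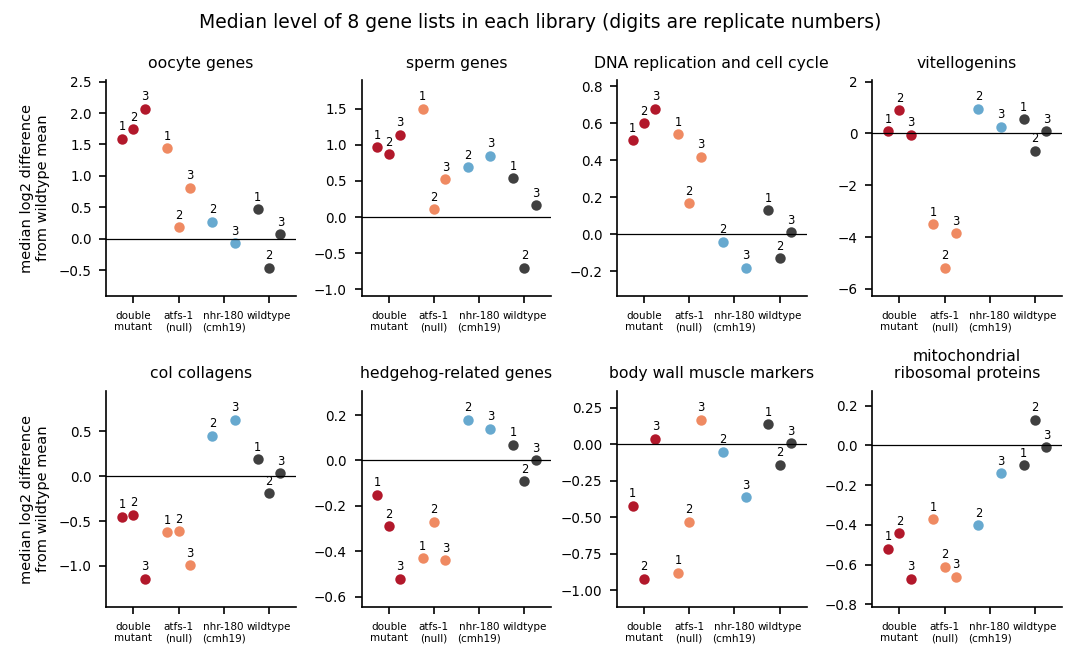
Points give, for each library, the median over a list of the log2 difference (CPM + 1) from the wildtype mean, with groups from left to right the double mutant, then atfs-1(null), nhr-180(cmh19) and wildtype and digits for the replicate numbers. Oocyte medians of the double mutant lie at 1.59 to 2.07, above every other library, with atfs-1(null) replicate 1 close below at 1.44. The vitellogenins separate atfs-1(null) from the rest.

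Cuticle genes were mostly lower. Collagens of the col class are made by the epidermis in waves before each molt, so their levels depend on the stage within L4. Of 131 col collagen genes tested 30 fell and 4 rose, with a median of -0.67, and 111 had negative values. Transcript of col-170 stood at 110, 83.3 and 83 CPM in the double mutant and 292, 279 and 288 CPM in wildtype (-1.64 ± 0.22, adjusted p = 0.000936). The abundant col-125 stood at 1286, 883 and 939 CPM in the double mutant and 2245, 2117 and 2211 CPM in wildtype (-1.08 ± 0.22, adjusted p = 0.00864). Wildtype libraries were tight for both, and the genotypes did not overlap. An exception was col-95, with 6.67, 14.9 and 6.02 CPM in the double mutant and 1.36, 0.786 and 1.25 CPM in wildtype (3.02 ± 0.42, adjusted p = 0.00126). Without single libraries 1 to 4 collagen genes rose. Collagen falls numbered 60 without atfs-1(null) replicate 1, 19 and 14 without double mutant replicates 1 and 3, and 15 and 12 without wildtype replicates 1 and 3.

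Of 54 genes for molting and the apical matrix 6 fell (11.1%) and 1 rose (1.85%), beside 6.27% and 10.1% over all tested genes. Their median was -0.27. The falls numbered 11 without atfs-1(null) replicate 1. The molting gene mlt-10 measured 312, 181 and 198 CPM in the double mutant and 504, 407 and 465 CPM in wildtype (-0.99 ± 0.22, adjusted p = 0.0118). The astacin metalloprotease genes nas-36 and nas-27 fell by 1.12 ± 0.24 and 2.11 ± 0.27. Of 68 hedgehog-related genes, a nematode family expressed in epidermis and tied to molting, 10 fell (14.7%) and 1 rose (1.47%), with a median of -0.39. One of them, grd-1, measured 60.3, 42.5 and 41.5 CPM in the double mutant and 91.1, 111 and 99.4 CPM in wildtype (-1.06 ± 0.18, adjusted p = 0.00335). Hedgehog-related falls numbered 21 without atfs-1(null) replicate 1, 6, 4 and 3 without double mutant replicates 1, 2 and 3, 5 without either nhr-180 library, and 5 and 4 without wildtype replicates 1 and 3.

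Heterochronic genes, which time the larval stages, gave few calls. Of 18 tested 2 rose (11.1%) and 1 fell (5.56%), beside 10.1% and 6.27% over all tested genes. Without single libraries 0 to 2 rose and 0 or 1 fell. The microRNA gene let-7, which promotes the larval-to-adult switch, measured 7.45, 5.65 and 6.59 CPM in the double mutant and 9.75, 12.6 and 12.7 CPM in wildtype (-0.83 ± 0.18, adjusted p = 0.0109; 0.0554 without wildtype replicate 3). These counts cover the locus and are not a measure of the mature microRNA. Its target lin-41, which is also made in the germ line, was higher, at 103, 103 and 192 CPM in the double mutant and 60.9, 39.4 and 50.5 CPM in wildtype (1.40 ± 0.37, adjusted p = 0.0279). That call was lost without double mutant replicate 3 (0.0983) or wildtype replicate 2 (0.098) or 3 (0.0926). The switch gene lin-29 was not called (-0.40 ± 0.18, adjusted p = 0.158).

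Yolk genes did not differ detectably between the double mutant and wildtype. None of the 6 vitellogenin genes was called by edgeR or DESeq2 and none reached 0.05 unadjusted; their fold changes ran between -0.70 and 0.54. Transcript of vit-2 stood at 2209, 3432 and 2010 CPM in the double mutant and at 2423, 1050 and 1772 CPM in wildtype (0.54 ± 0.38, adjusted p = 0.346). The genotypes overlapped, and wildtype replicate 2 was the lowest library. Against atfs-1(null), where vit-2 averaged 229 ± 98.5 CPM (SD, n = 3), the double mutant was higher by 3.48 ± 0.42 (adjusted p = 0.00397).

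That second comparison, the double mutant against atfs-1(null), called 71 of 16013 genes (0.443%), 50 higher (0.312%) and 21 lower (0.131%). By label the groups differ in the added nhr-180 mutation. The part of strain background or of stage within L4 in these calls was not tested. All 6 vitellogenins rose in it, with a median of 4.43. For vit-4 the values were 101, 228 and 107 CPM in the double mutant, 3.15, 0.424 and 2.34 CPM in atfs-1(null), and 286, 121 and 208 CPM in wildtype. The difference from atfs-1(null) was 6.20 ± 0.65 (adjusted p = 0.00228) and that from wildtype -0.50 ± 0.51 (adjusted p = 0.521). The double mutant libraries overlapped those of wildtype and lay far above every atfs-1(null) library. The genes vit-3, vit-4 and vit-5 are near-identical copies whose reads may be shared. Of the 6 calls, that of vit-3 was lost without atfs-1(null) replicate 3 (adjusted p = 0.0794) or double mutant replicate 2 (0.0543), and the others held without any single library.

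A few collagen genes were higher than in atfs-1(null) as well. Against atfs-1(null) 7 col collagen genes rose and none fell; 3 of the 7 were still called without atfs-1(null) replicate 2 and 4 without double mutant replicate 2. For col-143 the values were 43.9, 89.5 and 33.4 CPM in the double mutant, 2.64, 0.763 and 0.867 CPM in atfs-1(null), and 21.3, 23.4 and 21.1 CPM in wildtype (5.28 ± 0.50 against atfs-1(null), adjusted p = 0.00175). The double mutant was the highest of these genotypes in every library. For col-95 the double mutant was higher by 4.12 ± 0.45 (adjusted p = 0.00272). For col-119, chosen after its values were seen, the double mutant measured 219, 347 and 130 CPM, atfs-1(null) 27.9, 9.33 and 4.16 CPM and wildtype 304, 198 and 267 CPM. The rise of 4.07 ± 0.61 against atfs-1(null) (adjusted p = 0.0164) was lost without atfs-1(null) replicate 2 (0.132) or double mutant replicate 2 (0.0636). The uterine-enriched gene ule-3 stood at 33.5, 66.7 and 42.1 CPM in the double mutant, 5.83, 3.1 and 5.07 CPM in atfs-1(null), and 44.6, 18.9 and 33 CPM in wildtype (3.34 ± 0.37 against atfs-1(null), adjusted p = 0.00272; chosen after its values were seen). Double mutant replicate 2 was the highest of its group for each of these genes.

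Few genes fell against atfs-1(null). Apart from nhr-180 itself the largest fall meeting the naming rule was that of ckb-2, a choline kinase gene, with 13.4, 18.1 and 13.4 CPM in the double mutant, 62, 102 and 78.1 CPM in atfs-1(null), and 39.2, 35.2 and 39.2 CPM in wildtype. The double mutant was lower than atfs-1(null) by 2.43 ± 0.20 (log2; adjusted p = 0.000998) and lower than wildtype by 1.34 ± 0.20 (adjusted p = 0.00185). It was the lowest genotype in every library, while atfs-1(null) was the highest. Of the 71 calls 23 held without any single library, 20 rises and 3 falls. Leaving out double mutant replicates 1 and 2 gave 42 and 31 calls, leaving out atfs-1(null) replicates 1, 2 and 3 gave 812, 27 and 44, either nhr-180 library gave 47, and wildtype replicate 3 gave 41.

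**Figure D4:**
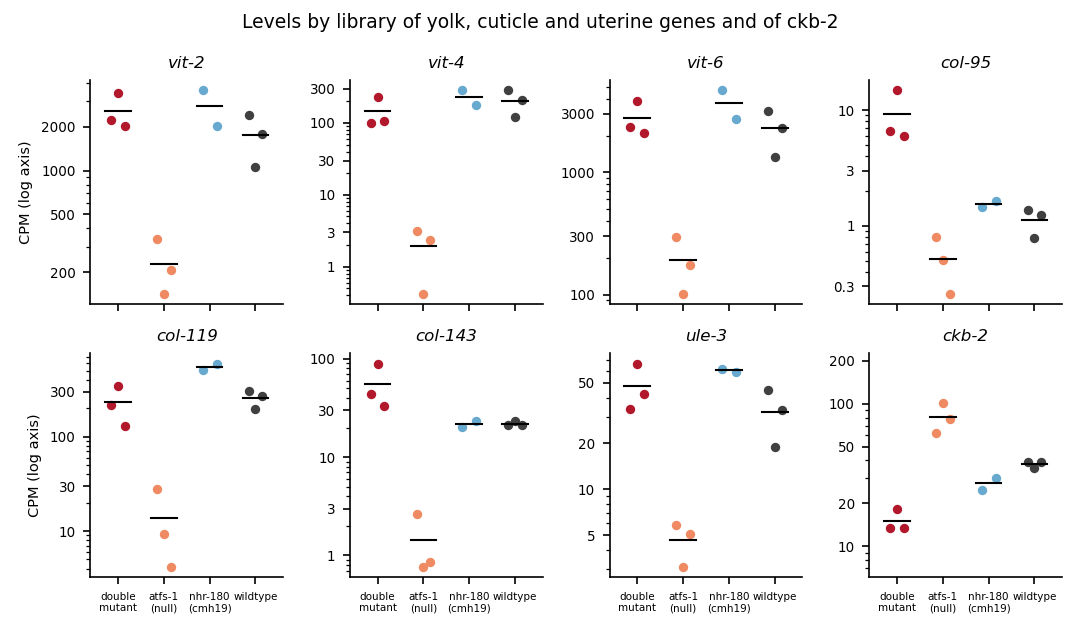
CPM on log axes, 1 point per library and a line at each group's mean, with groups from left to right the double mutant, then atfs-1(null), nhr-180(cmh19) and wildtype. In 7 of the 8 genes atfs-1(null) lies lowest and the double mutant near or above wildtype; in ckb-2 the double mutant is lowest, at 13.4 to 18.1 CPM, against 35.2 to 39.2 CPM in wildtype.

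Transcripts for lipid catabolism were more often lower than higher against wildtype. Of 62 fatty acid breakdown genes 24 fell and 3 rose, with a median of -0.32. The acyl-CoA dehydrogenase gene acdh-9 measured 49, 47.6 and 45.8 CPM in the double mutant and 118, 126 and 110 CPM in wildtype (-1.31 ± 0.12, adjusted p = 0.000103). Its paralog acdh-2 was scarce and went up, with 3.72, 2.8 and 3.67 CPM in the double mutant, against 0.422, 0.601 and 0.55 CPM in wildtype (2.68 ± 0.27, adjusted p = 0.000154). Both differences cleared the spread between replicates. Without single libraries the rises ranged over 1 to 5. The falls numbered 14 without double mutant replicate 1 or 3 and 15 and 12 without wildtype replicates 2 and 3. Of 16 desaturase and elongase genes 1 rose (6.25%) and 4 fell (25%), beside 10.1% and 6.27% over all tested genes. There were 1 to 5 falls in this list when any single library was left out. The palmitoyl desaturase gene fat-5 measured 19.8, 18.3 and 18.4 CPM in the double mutant and 4.78, 3.89 and 4.85 CPM in wildtype (2.06 ± 0.24, adjusted p = 0.000459). The stearoyl desaturase gene fat-7 measured 1.99, 3.13 and 1.32 CPM in the double mutant and 7.03, 7.12 and 5.8 CPM in wildtype (-1.62 ± 0.29, adjusted p = 0.00511).

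Breakdown of propionate was represented by 11 genes, all with negative values and a median of -0.26, of which 1 fell. This was acdh-1, the first enzyme of the shunt that is switched on when vitamin B12 is short. It stood at 346, 327 and 307 CPM in the double mutant, 1202, 788 and 613 CPM in atfs-1(null), 69.5 and 108 CPM in nhr-180(cmh19), and 687, 471 and 572 CPM in wildtype. The double mutant libraries lay between those of nhr-180(cmh19) and wildtype and overlapped neither, while atfs-1(null) overlapped wildtype. Its difference from wildtype was -0.82 ± 0.25 (adjusted p = 0.0483), a call lost without any 1 of the 6 libraries compared (adjusted p between 0.058 and 0.141) and without atfs-1(null) replicate 2 (0.0586).

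Transcripts for methyl-group metabolism leaned the same way. Of 19 one-carbon and methionine cycle genes 5 were called lower and none higher, with a median of -0.35. The S-adenosylmethionine synthetase gene sams-1 measured 628, 571 and 453 CPM in the double mutant and 961, 1557 and 1165 CPM in wildtype (-1.16 ± 0.23, adjusted p = 0.00837). The methionine synthase reductase gene mtrr-1 averaged 59.6 ± 1.97 CPM in the double mutant and 92.5 ± 10.2 CPM in wildtype (SD, n = 3 each), a difference of -0.63 ± 0.12 (log2 ± SE, adjusted p = 0.00755). Wildtype replicate 2 was the highest library for both. The falls in this list numbered 3, 3 and 2 without double mutant replicates 1, 2 and 3 and 2 and 3 without wildtype replicates 2 and 3. Of 6 choline kinase genes 3 fell (1 to 4 when any single library was left out) and none rose.

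Heme transport was among the lists with the largest share of falls. Worms cannot make heme and take it from food through HRG transporters. Of 14 heme and iron genes 6 fell and none rose, all 6 of the hrg class. Transcript of hrg-2, an epidermal heme-binding protein gene, stood at 3.25, 3.5 and 2.54 CPM in the double mutant, against 22.4, 28.4 and 25.1 CPM in wildtype (-3.02 ± 0.20, adjusted p = 8.31e-06). For hrg-9 the values were 2.08, 2.39 and 2.12 CPM in the double mutant and 7.87, 9.76 and 8.1 CPM in wildtype (-1.96 ± 0.18, adjusted p = 6.95e-05). The lysosomal heme transporter gene hrg-1 fell by 0.76 ± 0.14 and hrg-4, which imports heme at the gut surface, by 0.91 ± 0.17. Groups did not overlap in any of these.

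Detoxification families moved in both directions. Beside shares of 10.1% and 6.27% over all tested genes, 12 of 66 cytochrome P450 genes rose (18.2%) and 17 fell (25.8%). Their median was -0.14 by counts and 0.01 by TPM, beside 0.02 and 0.130 over all genes. Of 64 UDP-glucuronosyltransferases 11 rose (17.2%) and 15 fell (23.4%), with a median of -0.27. Transcript of cyp-14A5 stood at 152, 166 and 91.5 CPM in the double mutant and 19.4, 26.8 and 21.3 CPM in wildtype (2.60 ± 0.27, adjusted p = 0.000202). In contrast cyp-13A12 stood at 0.606, 0.824 and 0.47 CPM in the double mutant and 12.9, 10.1 and 11.2 CPM in wildtype (-4.15 ± 0.30, adjusted p = 2.03e-05). Within the glucuronosyltransferases ugt-43 rose by 2.81 ± 0.18 and ugt-62 fell by 2.11 ± 0.13. Cytochrome P450 falls numbered 11 without double mutant replicate 1 and 10 without wildtype replicate 3. Falls of glucuronosyltransferases numbered 23 without atfs-1(null) replicate 1, 9 without double mutant replicate 3 and 8 without wildtype replicate 3, and rises 7 without double mutant replicate 1 or 2.

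Of 5 flavin-containing monooxygenase genes edgeR called only fmo-2, which responds to food restriction and hypoxia, and the DESeq2 Wald test also called 1 lower. It measured 29, 31.7 and 24 CPM in the double mutant and 3.61, 4.39 and 3.9 CPM in wildtype (2.83 ± 0.17, adjusted p = 6.72e-06). Of 47 glutathione S-transferases 1 rose (2.13%) and 4 fell (8.51%), beside 10.1% and 6.27% over all tested genes. The falls ranged over 1 to 7 when any single library was left out. The oxidative stress reporter gst-4 was not called (-0.28 ± 0.17, adjusted p = 0.281). Of 24 antioxidant genes 1 rose (4.17%) and 3 fell (12.5%), beside the same shares over all tested genes. There were 1 to 3 rises and 1 to 5 falls without single libraries. The rise was that of sod-4, an extracellular superoxide dismutase gene (1.30 ± 0.15, adjusted p = 0.000493). The median of the antioxidant genes was -0.16 by counts and 0.01 by TPM, beside 0.02 and 0.130 over all genes.

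Nuclear hormone receptors were called in 12 of 200 tested cases as higher and 17 as lower, shares of 6% and 8.5% beside 10.1% and 6.27% over all genes. Their median was -0.07 by counts and 0.05 by TPM, beside 0.02 and 0.130 over all genes. Transcript of nhr-155 stood at 36.3, 39 and 25.8 CPM in the double mutant and 0.375, 2.08 and 1.5 CPM in wildtype (4.67 ± 0.43, adjusted p = 9.22e-05). Transcript of nhr-234 stood at 0.736, 0.412 and 0.753 CPM in the double mutant and 12.4, 16.1 and 13.2 CPM in wildtype (-4.45 ± 0.36, adjusted p = 3.93e-05). Neither gene's libraries overlapped. Leaving out double mutant replicates 1, 2 and 3 left 7, 6 and 7 receptor rises and leaving out wildtype replicate 3 left 5, while falls numbered 26 without atfs-1(null) replicate 1 and 11 without wildtype replicate 3.

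Innate defence genes showed rises and falls. Of 13 lysozyme genes 5 rose and none fell. The gene lys-7, which is needed for resistance to some bacteria, measured 172, 169 and 206 CPM in the double mutant and 16, 17.4 and 16.3 CPM in wildtype (3.46 ± 0.17, adjusted p = 1.25e-06). Its rise was called in every fit that left out 1 library, but leaving out double mutant replicates 1 and 2 left 2 and 1 lysozyme rises, against 3 without either nhr-180 library and 1 without wildtype replicate 1, 2 or 3. Of 139 C-type lectins, sugar-binding proteins of which many respond to pathogens, 23 rose (16.5%) and 15 fell (10.8%). The shares over all tested genes were 10.1% and 6.27%. Lectin rises numbered 15 without double mutant replicate 2 or wildtype replicate 3. Lectin falls numbered 7 and 8 without double mutant replicate 3 and wildtype replicate 3. Transcript of clec-61 stood at 12.8, 9.85 and 15.3 CPM in the double mutant and 0.234, 0.601 and 0.5 CPM in wildtype (4.81 ± 0.41, adjusted p = 5.07e-05). Of 32 tested pathogen response genes 4 rose (12.5%) and 1 fell (3.12%), beside 10.1% and 6.27% over all tested genes.

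Antimicrobial peptide genes rose in 6 of 60 cases (10%) and fell in 8 (13.3%), with a median of -0.13. The shares over all tested genes were 10.1% and 6.27%. The caenacin gene cnc-4 measured 11.2, 12.9 and 10.3 CPM in the double mutant and 4.83, 4.07 and 4.65 CPM in wildtype (1.34 ± 0.19, adjusted p = 0.00158). Falls of these peptides numbered 15 without atfs-1(null) replicate 1, 3 and 1 without double mutant replicates 1 and 3, 5 without either nhr-180 library, and 2 without wildtype replicate 2 or 3. Genes of the F-box A class, which encode adaptors of ubiquitin ligases, rose in 30 of 149 cases, with a median of 0.25. None fell by edgeR, 1 by the DESeq2 Wald test and 1 with the replicate block, and 7 were lower at an unadjusted p under 0.05. Without single libraries 0 to 4 fell, and 15 rose without wildtype replicate 3. One of them, fbxa-182, measured 15.8, 14.9 and 13.4 CPM in the double mutant and 2.95, 3.24 and 2.55 CPM in wildtype (2.33 ± 0.20, adjusted p = 5.88e-05).

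Of 22 genes of the insulin pathway and the dod class, which are regulated downstream of it, 6 rose and 1 fell. The gene dod-3 stood at 14.8, 15 and 16.5 CPM in the double mutant and 0.375, 0.555 and 0.55 CPM in wildtype (4.95 ± 0.35, adjusted p = 1.54e-05). The insulin-like peptide gene ins-7 rose by 2.37 ± 0.26 (adjusted p = 0.00031). Of 126 neuropeptide genes, insulins included, 4 rose (3.17%) and 3 fell (2.38%), beside 10.1% and 6.27% over all tested genes. There were 2 to 6 rises and 1 to 4 falls when any single library was left out.

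Outside the lists the tubulin gene tbb-6 stood out in both size and level. It measured 683, 673 and 524 CPM in the double mutant, 589, 693 and 510 CPM in atfs-1(null), 3.84 and 3.89 CPM in nhr-180(cmh19), and 23.2, 28.4 and 25.6 CPM in wildtype. The rise over wildtype was 4.61 ± 0.18 (adjusted p = 7.76e-07). Over nhr-180(cmh19), a comparison in which 2961 genes (18.5%) were called, 10.3% higher and 8.21% lower, it was 7.34 (adjusted p = 1.7e-07). The alcohol dehydrogenase gene adh-1 was high in all mutants, with 695, 660 and 502 CPM in the double mutant, 573 ± 87.6 CPM in atfs-1(null) (SD, n = 3), 705 and 641 CPM in nhr-180(cmh19), and 56.3, 125 and 89.9 CPM in wildtype (2.78 ± 0.27, adjusted p = 0.000123). The fatty acid and retinol binding protein gene far-3 rose by 5.49 ± 0.46, the long noncoding RNA tts-1 by 5.16 ± 0.30, the poly(ADP-ribose) glycohydrolase gene parg-2 by 4.61 ± 0.30 and the cyclic nucleotide-gated channel gene cng-1 by 4.58 ± 0.34. Among falls, the ABC transporter gene haf-6 measured 7.01, 7.34 and 8.37 CPM in the double mutant and 51.8, 57.8 and 52.9 CPM in wildtype (-2.84 ± 0.15, adjusted p = 2.12e-06). It was low in the single mutants too, at 6.42 ± 0.734 CPM in atfs-1(null) (SD, n = 3) and 5.94 and 6.87 CPM in nhr-180(cmh19). The part of strain background in the levels of adh-1 and haf-6 was not tested.

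**Figure D5:**
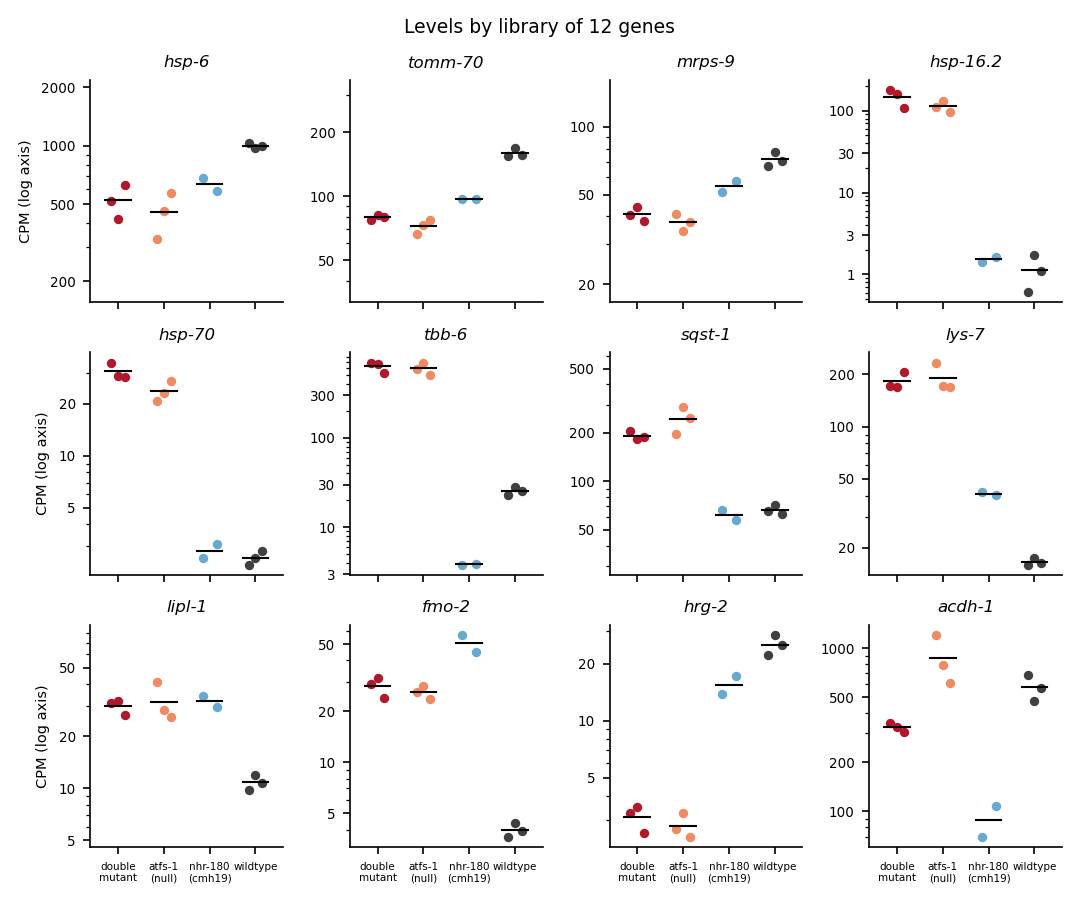
CPM on log axes for 12 genes, 1 point per library and a line at each group's mean, with groups from left to right the double mutant, then atfs-1(null), nhr-180(cmh19) and wildtype. Levels of hsp-6, tomm-70, mrps-9 and hrg-2 are lower in the double mutant than in wildtype, those of hsp-16.2, hsp-70, tbb-6, sqst-1, lys-7, lipl-1 and fmo-2 are higher, and acdh-1 is lower in the double mutant, at 307 to 346 CPM, against 471 to 687 CPM in wildtype.

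Markers of the main tissues were checked beside these results. The defining genes of muscle, pharynx, intestine, epidermis and neurons were detected in both genotypes, as whole animals require. Over all tested genes 10.1% rose and 6.27% fell against wildtype. Of 11 body wall muscle markers 1 fell, tni-1, a troponin gene (-0.93 ± 0.17, adjusted p = 0.00493), and the list's median was -0.32. Its summed level was 12214, 10110 and 18925 CPM in the double mutant and 18884, 15377 and 17229 CPM in wildtype, so double mutant replicates 1 and 2 were low and replicate 3 was not. Summed levels were 2129 to 2388 CPM in the double mutant and 2850 to 2952 CPM in wildtype for 8 intestine markers, of which 2 fell (0 to 3 without single libraries). Those of 8 hypodermis markers were 901 to 1373 CPM in the double mutant and 1305 to 1597 CPM in wildtype, with 1 fall, and those of 9 neuron markers 475 to 508 CPM in the double mutant and 485 to 507 CPM in wildtype, with 1 rise. For 8 pharynx markers they were 270 to 785 CPM in the double mutant and 491 to 714 CPM in wildtype, with 1 rise and 1 fall. The part of these differences in the gene group results was not tested.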

How the data were processed

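Per the labels' protocols, RNA from whole worms was made into stranded paired-end libraries. The authors deposited whole-number counts per gene, for which the submitters' processing notes name featureCounts 1.5.2, and TPM values normalized by the authors. No source used here names the aligner, annotation or strand setting (not given). Without a known strand setting, overlapping and antisense genes stay uncertain.

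Of 46926 genes, 22640 had no count. The 16013 genes kept by filterByExpr were scaled by TMM and fitted with edgeR 4.0.16 in R 4.3.3 (quasi-likelihood, all 11 libraries, 1 mean per genotype, two-sided, Benjamini-Hochberg adjusted p under 0.05). The common biological coefficient of variation was 21.7%. In simulated data with 200 changed genes this test found 53% of those changed 2-fold and 95% of those changed 4-fold, and 5.73% of its calls were false. The simulation drew each gene independently, left the scarcest genes unchanged and held no library that stood apart from its replicates. Its shares therefore do not give the error rate of the calls in these data. CPM values are counts scaled to each library's total multiplied by its TMM factor, which ranged over 0.94 to 1.06. Total counts of 20860822 to 22921602 limit the precision of scarce genes. Coordinates matched WBcel235 for 46863 of 46920 IDs found there.

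Alternatives were DESeq2 1.42.0 (Wald test and size factors), no filter, compared groups only, a replicate block, a 2-fold minimum, limma 3.58.1 on log2(TPM + 1) or log2(TPM + 0.1), at 1 TPM in 2 libraries or with no minimum, and leaving out each library.

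Members and lists were chosen with earlier results of these data known. Named genes were the targets, a fixed set of reporters, the 12 largest called rises and falls at 5 CPM or more with groups that do not overlap, the 8 largest by CPM difference, the 4 smallest adjusted p-values of each list, and the 5 largest called changes each way against each single mutant.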

Additional observations from a re-analysis of the deposited data

How the results depend on the processing

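Between the double mutant and wildtype the number of called genes was 1177 with a 2-fold minimum, where 2618 were called without it, and ranged over 1121 to 4069 when single libraries were left out. The other settings, among them the DESeq2 Wald test (3392), the compared groups only (3508) and limma on TPM (3065), stayed within 1.5 times. Against atfs-1(null), where 71 were called, the number was 241 by the DESeq2 Wald test, 17 with the compared groups only, 113 by limma on TPM with no minimum and 150 with no filter on low counts, and ranged over 27 to 812 without single libraries. Against nhr-180(cmh19), where 2961 were called, it was 1477 with a 2-fold minimum and ranged over 437 to 4332 without single libraries; without a replicate of nhr-180(cmh19) its lone library is assumed to vary like the other groups. Without wildtype replicate 2 and atfs-1(null) replicate 1 together, chosen after seeing the data, 3206 genes were called against wildtype.

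Of the named genes called against wildtype, 98 of 183 kept the call under every alternative. The directions that turned were of genes not called: without single libraries phat-1 ranged over -0.53 to 0.03 (highest without wildtype replicate 1), vit-6 over -0.05 to 0.60 and vit-5 over -0.01 to 0.66 (both lowest without double mutant replicate 2). The deviations of same-numbered double mutant and wildtype libraries from their group means correlated at -0.275, 0.293 and 0.115 across genes. Not every library correlated best with its own number. With 3 libraries per group these correlations cannot show whether same-numbered samples were handled together. With the replicate block 2736 genes were called against wildtype, 58 against atfs-1(null) and 2706 against nhr-180(cmh19). The cause of these changes was not tested. A planned description of promoter motifs was not run.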

Other observations

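A few genes known only by sequence names, chosen after their values were seen, differed more than most named ones. BE0003N10.6 measured 0.649, 0.577 and 0.847 CPM in the double mutant, 0.881, 0.594 and 0.694 CPM in atfs-1(null), 0.625 and 2.94 CPM in nhr-180(cmh19), and 85.2, 54.9 and 73.2 CPM in wildtype. D1014.7 measured 0.13, 0.124 and 0.141 CPM in the double mutant, 0.21, 0.466 and 0.217 CPM in atfs-1(null), 0.268 and 0.407 CPM in nhr-180(cmh19), and 15.4, 14.7 and 16.1 CPM in wildtype. Both were low in every mutant library, and the part of strain background in this was not tested. In the double mutant they were lower than in wildtype by 6.68 ± 0.47 and 6.81 ± 0.30 on the log2 scale (edgeR, adjusted p = 1.44e-05 and 9.19e-07). D1014.6 was listed at 0.0433, 0 and 0 CPM in the double mutant and at 26.1, 20.2 and 24 CPM in wildtype.

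Some genes on the same chromosome as nhr-180, at V:665919, were among the largest rises. K06H6.2, which starts at V:585772, averaged 82.3 ± 31 CPM in the double mutant, 85.9 ± 55.5 CPM in atfs-1(null) and 1.4 ± 0.0999 CPM in wildtype (SD, n = 3 each), with 8.58 and 9.0 CPM in nhr-180(cmh19). The double mutant exceeded wildtype by 5.88 ± 0.51 (log2 ± SE, edgeR, adjusted p = 5.88e-05). ZK488.6, which starts at V:590482, measured 16.8, 12.4 and 7.81 CPM in the double mutant, 21.6, 10.6 and 9.72 CPM in atfs-1(null), 1.34 and 0.904 CPM in nhr-180(cmh19), and 0.141, 0.139 and 0.1 CPM in wildtype. These genes were high in atfs-1(null) as well as in the double mutant. The cause of their rises, strain background included, was not tested. Of 210 tested genes within 1 Mb of nhr-180, 44 (21%) rose and 9 (4.29%) fell in the double mutant against wildtype; of 395 within 1 Mb of atfs-1, 53 (13.4%) rose and 17 (4.3%) fell. Over all of chromosome V, which holds both, the shares were 12.7% and 8.13%, and over all tested genes 10.1% and 6.27%.

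Chromosomes differed in their shares of calls. On the X chromosome 5.23% of 2275 tested genes rose and 8.09% fell against wildtype, with a median of -0.23, while on chromosome I 11.3% of 2558 rose and 4.81% fell, with a median of 0.13. Chromosome V had 12.7% rises, above the 9.45% to 11.3% of chromosomes I to IV, and 8.13% falls, a share close to that of X. Against atfs-1(null) 25 of the 50 genes that rose lay on X, which holds 14.2% of the tested genes.

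Among 138 gene classes with at least 10 tested members, looked through after the values were seen, the share of rises was highest in the skr class, which encodes relatives of Skp1 (9 of 17, 52.9%), the him class (5 of 11, 45.5%), the hsp class (8 of 20, 40%) and the cpg class (4 of 11, 36.4%), beside 10.1% over all tested genes. The share of falls was highest in the nspb class (8 of 11, 72.7%), the mitochondrial ribosomal classes mrps (18 of 29, 62.1%) and mrpl (25 of 42, 59.5%), and the grd class (7 of 14, 50%), beside 6.27% over all tested genes.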
